A study of Mus musculus with 6 samples.

Results

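The 9 genes described here encode proteins with which blood vessel endothelium controls clotting and the removal of clots: Vwf, F3, F8, Tfpi, Tfpi2, Thbd, Procr, Plat and Serpine2. They were taken as every non-control probe of the arrays whose accession belongs to one of these symbols in a table of RefSeq genes, which gave 13 probes out of 55681, and 9 genes out of the 20014 with a symbol. RNA from endothelial cells of mouse skin had been measured on 6 one-colour Agilent expression arrays. Of these, 3 carried wild-type samples and 3 carried samples from mice labelled as APJ knockout, APJ being the apelin receptor encoded by Aplnr. Both groups are of strain C57Bl/6J, the cells were collected by fluorescence-activated sorting with no later treatment, and 0.1 µg of RNA was labelled with the dye Cy3 for each array. The description of each sample gives a mouse number within its genotype. The labels used here do not give the age, the knockout allele, the surface markers of the sort, or whether animals were pooled. An embryonic stage appears in the scanner file names alone. Each p-value therefore weighs a difference against the spread among these 6 samples, which may be partly technical. The comparison asks which genes differ in these cells between mice labelled as lacking the receptor and wild type.

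Clotting starts when blood meets tissue factor, which activates a chain of proteases that ends in thrombin and fibrin. Resting endothelium holds this chain back through inhibitors of tissue factor and through surface receptors that turn thrombin into an activator of the anticoagulant protein C, and it releases a plasminogen activator that leads to the digestion of fibrin. Endothelial cells are also a main source of von Willebrand factor, the platelet-binding carrier of factor VIII that they store in Weibel-Palade bodies.

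Levels are given as log2 of the processed signal minus the 75th percentile of the same array, so 0 is that percentile and 1 unit is a 2-fold step. Probes differ in how well they bind, so levels of different probes do not rank genes by their amount of transcript. Below, the brightest gene of a list is the one with the highest probe signal. Sums over marker lists carry the same limit. Vwf, Tfpi, Thbd and Procr were above 0 on all 6 arrays, with every probe of each, and the regions just upstream of Tfpi and Procr are shown because RefSeq windows of these well-measured members were at hand. They come from build GRCm38.p6 and run 5′ to 3′ over the 250 bases before the start. The table lists both Tfpi starts.

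Procr, chr2:155750967-155751216, plus strand: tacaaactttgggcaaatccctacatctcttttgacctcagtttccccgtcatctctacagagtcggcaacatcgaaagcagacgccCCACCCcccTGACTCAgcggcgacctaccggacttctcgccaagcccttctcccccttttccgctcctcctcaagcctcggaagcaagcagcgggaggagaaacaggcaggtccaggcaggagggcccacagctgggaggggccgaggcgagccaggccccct

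Tfpi start A, chr2:84476760-84477009, minus strand: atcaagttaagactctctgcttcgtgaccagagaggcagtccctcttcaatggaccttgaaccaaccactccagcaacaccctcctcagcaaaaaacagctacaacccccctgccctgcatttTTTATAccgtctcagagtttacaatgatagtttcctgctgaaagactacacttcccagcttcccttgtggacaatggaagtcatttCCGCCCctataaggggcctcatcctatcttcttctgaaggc

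Tfpi start B, chr2:84474175-84474424, minus strand: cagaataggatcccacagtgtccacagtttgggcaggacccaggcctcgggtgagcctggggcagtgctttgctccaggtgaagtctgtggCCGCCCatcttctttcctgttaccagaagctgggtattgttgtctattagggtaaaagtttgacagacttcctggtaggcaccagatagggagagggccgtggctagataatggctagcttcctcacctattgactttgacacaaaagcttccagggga

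Capitals mark matches, on either strand, to any of 6 motifs. The GC box was searched as GGGCGG. The CACC box, which Krüppel-like factors bind, was searched as CCACCC. The AP-1 site was searched with the letters TGACTCA. For the TATA box the letters TATAAA were used, for GATA factors the letters GATAAG, and for ETS factors, which many endothelial promoters hold, the letters CCGGAA. None of the motifs contains another, although neighbouring matches can share bases. The Procr window holds 1 AP-1 site and 1 CACC box. Each Tfpi window holds 1 GC box, and start A also holds 1 TATA box. Among all 32851 windows of the table, cut to the same 250 bases, 32.7% hold the GC box, 28.1% the CACC box, 12.4% the TATA box and 4.46% the AP-1 site. A match describes these letters only. The arrays measure transcripts and bear on no factor's binding.

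The arrays had between 50.3% and 58.0% of their probes well above background, by the scanner software's own call, and their 75th percentile of intensity lay between 251.8 and 399.7. Replicates 1 and 2 of both genotypes were on slide 1 and replicates 3 on slide 2, which was scanned in a separate session. Aplnr read between 3.35 and 3.82 in wild type and between 1.71 and 2.26 in the knockout, so every knockout array lay below every wild-type array. Its difference was -1.69 ± 0.19 (SE, limma adjusted p = 0.0236). The probe still read 30.9% of wild type in the knockout and stayed above the 75th percentile. With the allele not given, whether it lies inside the deleted part is not known here. Pan-endothelial markers were well above background on every array for 12 of 12 genes, with Egfl7, a secreted vascular protein, the brightest.

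None of the 9 genes passed the limma test with genotype alone, in which the spread between arrays includes differences between slides. That fit called 0 of 9, with 0 at an unadjusted p under 0.05. Among all 24247 genes and unnamed probes tested, 0.553% were called and 8.02% were at that unadjusted level. With the slide as a block 0 of 9 were called. In that fit 3 of 9 had an unadjusted limma p under 0.05, as had 3146 of 24247 overall. With the replicate number as a block 0 of 9 were called, and the unadjusted counts were 4 of 9 and 3385 of 24247. The groups overlapped for all 9. Over everything tested, 12.2% had groups that did not overlap (6.36% higher and 5.85% lower in the knockout). With only 9 genes, these counts of 0 do not set the members apart from the shares over everything tested. Of the 9 differences, 4 lay above 0, and they ran from -0.28 for Plat to 0.49 for Tfpi2 with a median of -0.11. The median over everything tested was -0.02, and 43.6% of it lay above 0. Without wild type replicate 1 the members' median was 0.02 and without APJ knockout replicate 3 it was 0.13. All 9 genes passed the filter, which asks for a signal well above background on every array of at least 1 group, while 2 of the 13 probes did not. The number of arrays limits the precision. The difference of each of the 9 genes is given below with its 95% interval from the fit. A p that misses the threshold does not show that the genotypes were alike. In sorted bulk samples, fewer cells of a type and less RNA per cell cannot be told apart.

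**Figure D1:**
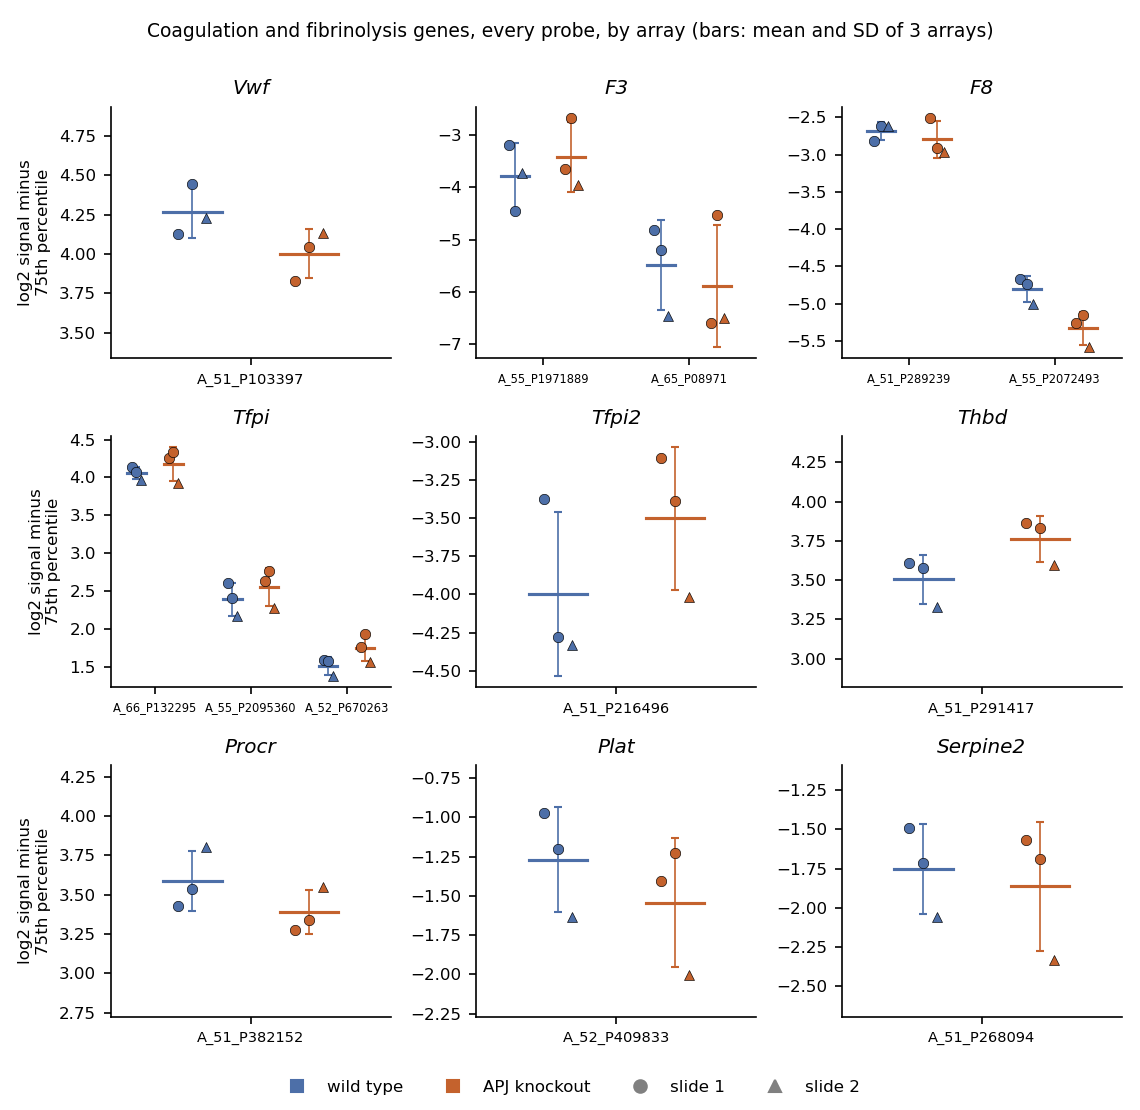
Signal of every member probe on each array, as log2 minus the array's 75th percentile, for wild type (blue) and APJ knockout (orange), with the mean and SD of 3 arrays and the slide by marker shape. The genotypes overlap for every gene, and A_55_P2072493 of F8 is the 1 probe whose groups do not.

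Vwf encodes von Willebrand factor, which tethers platelets to injured vessels and carries factor VIII. Its signal on chromosome 6 probe A_51_P103397 (NM_011708) was 4.13, 4.45 and 4.23 in wild type replicates 1 to 3 and 3.83, 4.04 and 4.13 in APJ knockout replicates 1 to 3. Wild type replicates 2 and 3 stood above all knockout arrays, and wild type replicate 1 was level with APJ knockout replicate 3. The means were 4.27 ± 0.16 and 4.002 ± 0.16 (SD, n = 3 each), a difference of -0.27 ± 0.13 (SE) with an interval from -0.57 to 0.04 (limma adjusted p = 0.738). In linear terms the knockout stood at 83.2% of wild type, with an interval of 67.3% to 102.7%. The difference was -0.35 within slide 1 and -0.10 within slide 2, and the exact permutation p was 0.2, where 0.1 is the smallest that 3 arrays against 3 can give.

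F8 encodes factor VIII, the cofactor of the protease that activates factor X, and lies on the X chromosome. Probe A_51_P289239 (NM_007977) was dim but well above background on all 6 arrays. It read -2.82, -2.62 and -2.61 in wild type and -2.51, -2.92 and -2.96 in the knockout, so APJ knockout replicate 1 was the highest of all arrays and the other knockout arrays the lowest. The difference was -0.11 ± 0.15 (SE, interval -0.46 to 0.24, limma adjusted p = 1.00), with 0.01 within slide 1 and -0.35 within slide 2. The second probe, A_55_P2072493 (NM_001161374), was not tested, being well above background on 2 of 3 wild-type and 0 of 3 knockout arrays. It read -4.67, -4.74 and -5.01 in wild type and -5.26, -5.16 and -5.58 in the knockout, every knockout array lying below every wild-type array (exact permutation p = 0.1, the smallest possible). No fold is given for it, since its knockout signal sits at the limit of detection.

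F3 encodes tissue factor, the cell-surface receptor that starts clotting and that resting endothelium is known to keep low. Neither of its probes, both of accession NM_010171 on chromosome 3, gave a firm signal. The brighter probe, A_55_P1971889, was well above background on 2 of 3 wild-type and 3 of 3 knockout arrays and read -3.18, -4.45 and -3.72 in wild type against -3.64, -2.67 and -3.96 in the knockout. APJ knockout replicate 2 was the highest array and wild type replicate 2 the lowest. The difference of 0.36 ± 0.43 (SE) had an interval from -0.66 to 1.38 (limma adjusted p = 1.00), and without APJ knockout replicate 2 it was -0.01. The other probe, A_65_P08971, was well above background on 0 of 6 arrays.

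Tfpi encodes tissue factor pathway inhibitor, a Kunitz-type inhibitor of the tissue factor complex and of activated factor X, and lies on chromosome 2. Its 3 probes were well above background on all 6 arrays. The brightest, A_66_P132295 (NM_011576), read 4.13, 4.07 and 3.97 in wild type and 4.26, 4.34 and 3.92 in the knockout. APJ knockout replicates 1 and 2 were the highest and APJ knockout replicate 3 the lowest. Its difference was 0.12 ± 0.13 (SE, interval -0.20 to 0.43, limma adjusted p = 1.00), and the value was 0.20 within slide 1 and -0.05 within slide 2. The other probes had differences of the same sign. A_55_P2095360, of the same accession, differed by 0.16 ± 0.17. A_52_P670263 (NM_001177319) read 1.59, 1.57 and 1.38 in wild type and 1.76, 1.93 and 1.56 in the knockout, a difference of 0.24 ± 0.12 (SE, limma adjusted p = 0.812 in the fit of every probe). Both slides gave it a positive difference, 0.26 and 0.19, but APJ knockout replicate 3 lay below the wild-type arrays of slide 1.

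Tfpi2 encodes a second Kunitz-type inhibitor, known for inhibiting plasmin and matrix-bound proteases, and lies on chromosome 6. Its probe A_51_P216496 (NM_009364) read -3.38, -4.28 and -4.33 in wild type, where 2 of 3 arrays were well above background, and -3.11, -3.39 and -4.01 in the knockout, where all 3 were. Wild type replicate 1 stood apart from the other wild-type arrays, at the level of APJ knockout replicate 2. The difference of 0.49 ± 0.33 (SE) had an interval from -0.30 to 1.29 (limma adjusted p = 0.960). It was 0.80 without wild type replicate 1 and 0.03 with normexp background correction, and these arrays do not settle its size.

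Thbd encodes thrombomodulin, the receptor that switches thrombin from a clotting enzyme to an activator of protein C. Its probe A_51_P291417 (NM_009378, chromosome 2) read 3.61, 3.58 and 3.33 in wild type and 3.86, 3.83 and 3.59 in the knockout. On each slide every knockout array lay above every wild-type array, but APJ knockout replicate 3, on slide 2, fell below wild type replicate 1 on slide 1. The means were 3.50 ± 0.15 and 3.76 ± 0.15 (SD, n = 3 each), a difference of 0.26 ± 0.12 (SE) with an interval from -0.04 to 0.55 (limma adjusted p = 0.733, exact permutation p = 0.2). The knockout stood at 119.6% of wild type, with an interval of 97.6% to 146.5%. Taken by replicate number, the knockout array exceeded the wild-type array of the same number by 0.26, 0.25 and 0.27. Whether same-numbered samples belong together is not known here. Blocking on the replicate number gave an SE of 0.05 and an unadjusted limma p of 0.00766. Blocking on the slide gave an unadjusted limma p of 0.00605. Neither passed over all genes (limma adjusted p = 0.181 and 0.145, in that order).

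Procr encodes the endothelial protein C receptor, which presents protein C to the complex of thrombin and thrombomodulin, and its upstream sequence is given above. Probe A_51_P382152 (NM_011171) read 3.43, 3.54 and 3.80 in wild type and 3.28, 3.34 and 3.55 in the knockout. The knockout array was the lower one in each same-numbered pair, by -0.15, -0.20 and -0.25 (knockout minus wild type). Wild type replicates 1 and 2 lay below APJ knockout replicate 3, so the groups overlapped. The difference was -0.20 ± 0.13 (SE, interval -0.52 to 0.11, limma adjusted p = 0.947), and blocking on the replicate number gave a limma adjusted p of 0.273. Without wild type replicate 3 the difference was -0.095. Thbd and Procr, which act in 1 complex, had differences of opposite sign, and neither passed the test.

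**Figure D2:**
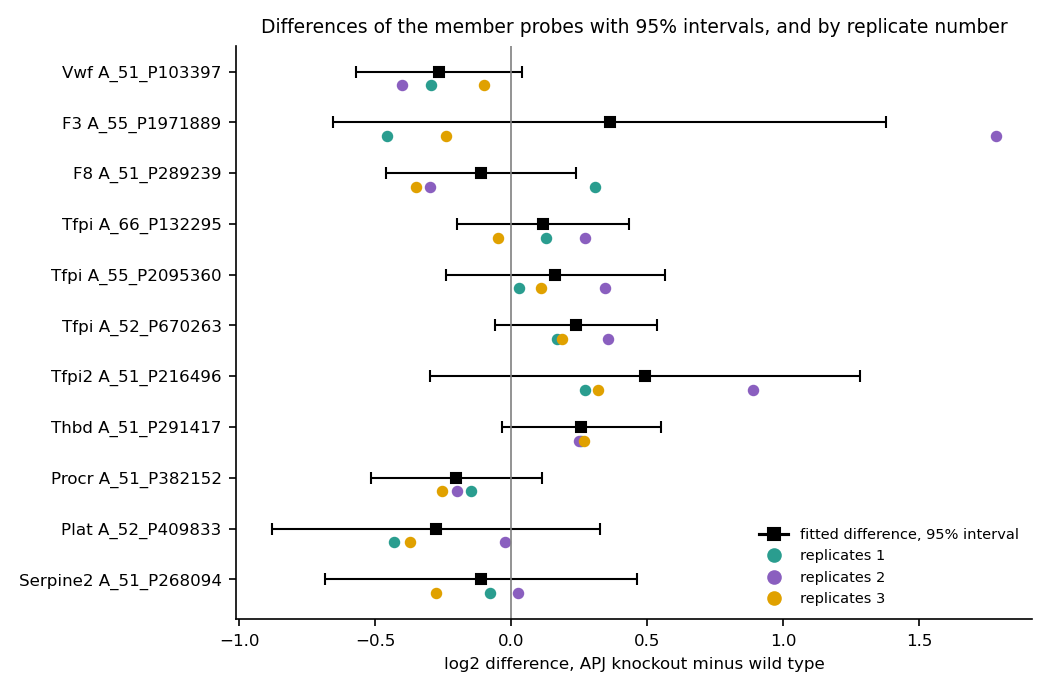
Log2 difference, APJ knockout minus wild type, for the 11 tested member probes, with 95% intervals of the limma fit of every probe in black and, in colour, the difference of each same-numbered pair of arrays. Every interval includes 0, while the 3 pairs of Thbd lie close together at 0.25 to 0.27. Pairs share a number in the titles only, and whether their samples belong together is not known.

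Plat encodes tissue plasminogen activator, which turns plasminogen into the fibrin-digesting plasmin. Its probe A_52_P409833 (NM_008872, chromosome 8) read -0.97, -1.20 and -1.63 in wild type and -1.40, -1.22 and -2.01 in the knockout. The slide 2 array was the lowest of its genotype in both groups. The difference was -0.28 ± 0.25 (SE, interval -0.88 to 0.33, limma adjusted p = 1.00), and it was -0.04 without APJ knockout replicate 3. Serpine2 encodes protease nexin-1, an inhibitor of thrombin, plasmin and plasminogen activators, on chromosome 1. Its probe A_51_P268094 (NM_009255) read -1.49, -1.71 and -2.06 in wild type and -1.57, -1.69 and -2.33 in the knockout. The ranges nearly coincided, the difference was -0.11 ± 0.24 (SE, interval -0.68 to 0.47, limma adjusted p = 1.00), and it was 0.13 without APJ knockout replicate 3.

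Several members differed between slides by as much as between genotypes, or by more. In both genotypes the slide 2 array read below the mean of the slide 1 arrays for Thbd (-0.27 in wild type and -0.25 in the knockout), Plat (-0.55 and -0.69), Serpine2 (-0.46 and -0.71) and Tfpi2 (-0.51 and -0.77). Procr ran the other way, with 0.32 in wild type and 0.24 in the knockout. Slide 2 held 1 array of each genotype, so these values have no replicate. When the slide was made a block, 0 of 9 members passed, against 1.18% of everything tested. In that fit Thbd, Procr and Plat, 3 of 9, had an unadjusted limma p under 0.05, as had 3146 of 24247 over everything tested. When the replicate number was made a block, 0 of 9 passed, against 0.0206% of everything tested. There 4 of 9 (Vwf, Tfpi2, Thbd and Procr) had an unadjusted limma p under 0.05, as had 3385 of 24247 overall.

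Other genes of the plasminogen system read mostly higher in the knockout, but 0 of the 9 tested passed the limma test with genotype alone. They come from 12 listed genes, with 7 differences above 0, a median difference of 0.28, 4 at an unadjusted p under 0.05 and 4 whose groups did not overlap. Over everything tested 43.6% lay above 0, 8.02% had an unadjusted p under 0.05 and 12.2% had groups that did not overlap. Dropping wild type replicate 3 brought the median to 0.048, and dropping APJ knockout replicate 2 brought it to 0.17. On the same arrays macrophage markers had 10 of 11 differences above 0 with a median of 0.48, and lymphatic endothelial markers had 8 of 8 with a median of 0.54. Their part in the values of this list was not tested. Lrp1, the endocytic receptor that clears complexes of proteases and inhibitors, read -1.16, -1.27 and -1.34 in wild type and -0.46, -0.64 and -0.64 in the knockout. All its knockout arrays stood clear of the wild-type arrays, by a mean of 0.68 ± 0.10 (SE, limma adjusted p = 0.0524). Thbs1, a matrix protein that binds plasminogen activators and plasmin, differed by 0.66 ± 0.14 (SE, limma adjusted p = 0.155). The urokinase receptor Plaur differed by 0.37 ± 0.10 (SE, limma adjusted p = 0.288), and its groups did not overlap.

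Lrp1 and Thbs1 passed once the slide was a block (limma adjusted p = 0.0327 and 0.0351) and not once the replicate number was (0.0746 and 0.0977). Lrp1 also passed in the fit of every probe on its own (limma adjusted p = 0.0484). Outside the naming rule, and chosen after their values were seen, urokinase itself, Plau, differed by 0.39 (limma adjusted p = 0.633) and the plasminogen receptor Plgrkt by -0.29 (limma adjusted p = 0.351). The groups of Plgrkt did not overlap and those of Plau did. Plasminogen itself, Plg, was well above background on 0 of 6 arrays.

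**Figure D3:**
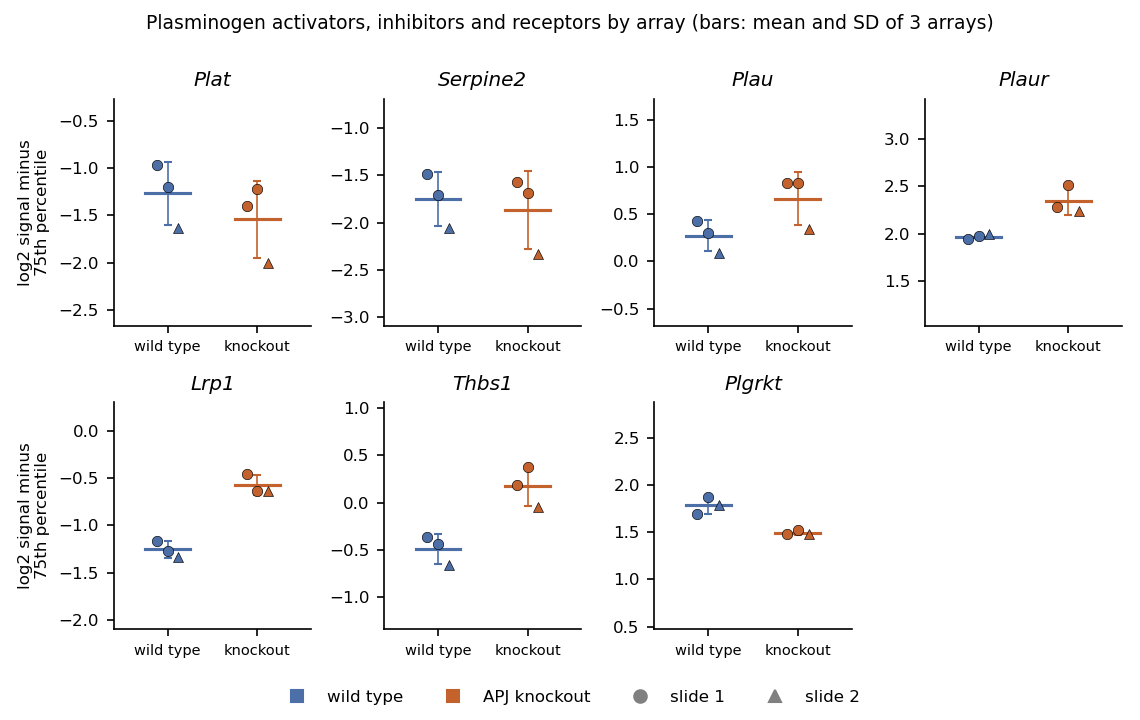
Signal by array, as log2 minus the array's 75th percentile, of the members Plat and Serpine2 and of 5 other genes of the plasminogen system, with the mean and SD of 3 arrays. The genotypes overlap for Plat, Serpine2 and Plau and do not for Plaur, Lrp1, Thbs1 and Plgrkt, and every panel has an axis of the same span.

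Coagulation factors made mainly by the liver were mostly at or near background. Of 20 listed factors and processing enzymes 11 were tested, 4 of them above 0, with a median difference of -0.02 (-0.07 to 0.03 with 1 array left out), and 7 were well above background on 0 of 6 arrays, both other fibrinogen chains Fgb and Fgg among them. The limma test called 0 of 11, and 4 had an unadjusted p under 0.05. The groups of 3 genes, F13a1, F2 and F5, did not overlap. Over everything tested 8.02% had an unadjusted p under 0.05 and 12.2% had groups that did not overlap. F13a1, the fibrin cross-linking subunit of factor XIII, differed by 1.96 ± 0.49 (SE, limma adjusted p = 0.237), while its other probe was well above background on 0 of 6 arrays. F2, which encodes prothrombin, differed by -0.69 ± 0.19 (limma adjusted p = 0.312), with -0.96 within slide 1 and -0.15 within slide 2. Fga, a fibrinogen chain, differed by -0.41 ± 0.16 (limma adjusted p = 0.593). F5, the cofactor of activated factor X, named after its values were seen, differed by -0.46 (limma adjusted p = 0.607). F2, Fga and F5 were dim, with wild-type means of -2.85, -3.59 and -3.66. The other probe of Fga and that of F5 were well above background on 0 of 6 arrays. F10, singled out after its values were seen, was read by 2 probes of the same accession, whose differences were -0.09 and -0.04. Their levels lay far apart, from 9.86 to 10.14 for the first and from -3.09 to -2.52 for the second. Both were well above background on all 6 arrays, so the level of F10 is not settled here. Genes that serve the carboxylation of clotting factors and the export of factor VIII, Ggcx, Vkorc1, Vkorc1l1, Lman1 and Mcfd2, had differences between -0.05 and 0.12.

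Of 12 anticoagulant genes 9 were tested, 7 above 0, with a median of 0.11 (0.013 without APJ knockout replicate 2), no call, and 0 at an unadjusted limma p under 0.05. Serping1, the C1 inhibitor, had the largest difference, 1.04 ± 0.72 (SE), but APJ knockout replicate 1 alone stood apart (0.51 against -2.23 and -2.22), and a second probe differed by 0.02 (limma adjusted p = 0.979 for the gene). Anxa5, which shields membrane phospholipid from clotting factors, differed by 0.10, and Hs3st1, which makes the antithrombin-binding site of heparan sulphate, by -0.18. Among the protease-activated receptors, F2r, the main thrombin receptor, differed by 0.15 and F2rl3 by -0.10. F2rl1 and F2rl2 were well above background on 0 of 6 arrays.

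Weibel-Palade bodies store Vwf together with other cargo. Of 13 listed genes for their cargo, their release and the cleavage of von Willebrand factor, 12 were tested, 7 above 0, with a median of 0.08 and 0 calls. An unadjusted limma p under 0.05 was found for 2, against 8.02% of everything tested. The sign of that median was not stable, being -0.041 when wild type replicate 1 was left out, 0.0023 when APJ knockout replicate 1 was, -0.0023 when APJ knockout replicate 3 was, and 0.15 when wild type replicate 3 was. Angpt2, an antagonist of the Tie2 receptor stored beside von Willebrand factor, read 2.07, 2.25 and 2.21 in wild type and 3.26, 3.09 and 2.79 in the knockout. Its groups did not overlap, and its difference of 0.87 ± 0.14 (SE, limma adjusted p = 0.0680) was of opposite sign to that of Vwf. The membrane fusion gene Stx3 differed by -0.29, but another of its probes, averaged over 10 spots, by -0.02. Sytl4, a regulator of exocytosis, differed by -0.24. Adamts13, the protease that cleaves von Willebrand factor, was well above background on 0 of 6 arrays.

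**Figure D4:**
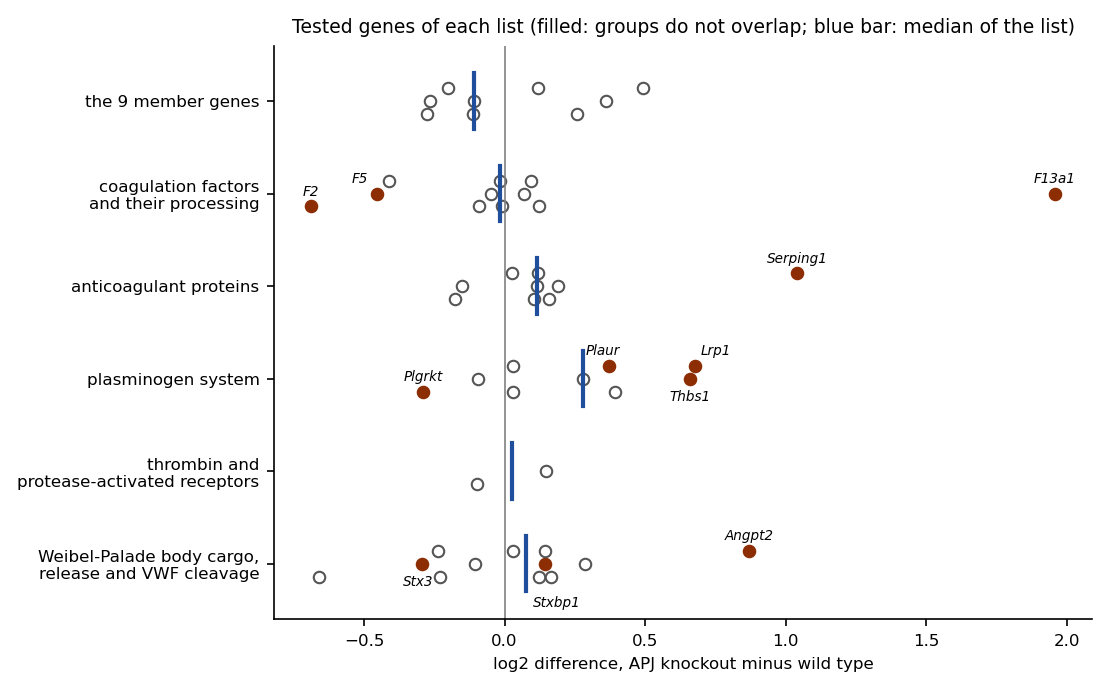
Log2 difference, APJ knockout minus wild type, of each tested member and of the tested genes in 5 lists of the same pathway. Filled points are genes whose groups do not overlap, none among the 9 members and 4 in the plasminogen system, and blue bars mark list medians.

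Markers of other cell types were read on the same arrays, with levels summed on the linear scale over each list as multiples of the array's 75th percentile. Counts above 0 are of differences, knockout minus wild type. Platelet and megakaryocyte markers, 12 of 12 tested and 8 above 0, summed to 7.33 to 7.85 in wild type and 8.67 to 11.03 in the knockout, and Pf4, a platelet chemokine, was the brightest. Platelets carry von Willebrand factor, and their part in the Vwf difference of -0.27 was not tested. Macrophage markers, 11 of 13 tested and 10 above 0, summed to 14.3 to 26.9 in wild type and 16.6 to 25.7 in the knockout, Csf1r being the brightest and Cd163 well above background on no array. The sums follow the brightest markers, and Csf1r itself differed by -0.23. The median difference of the list was 0.48 (0.93 without wild type replicate 3). The groups of 5 of the 11 markers did not overlap, against 12.2% of everything tested. Those 5, named after their values were seen, were Aif1 (1.11), C1qa (1.79), C1qb (0.48), C1qc (1.91) and Lyz2 (1.83). None passed the limma test with genotype alone, while C1qa passed with the replicate block (adjusted p = 0.0428) and Aif1 with the slide block (adjusted p = 0.0240). Macrophages are a known source of F13a1, and their part in its difference was not tested.

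Keratinocyte markers, 7 of 13 tested and none above 0, summed to 10.2, 16.3 and 34.1 in wild type replicates 1 to 3 and to 10.4 to 11.2 in the knockout, with Trp63 the brightest. Fibroblast markers, 6 of 10 tested and 2 above 0, summed to 4.11 to 6.19 in wild type and 3.18 to 7.61 in the knockout, with Col1a2 the brightest and Dpt at background. Mural markers, 6 of 11 tested and 3 above 0, summed to 3.31 to 4.15 and 3.54 to 4.16, with Tagln the brightest and Myh11, Cnn1 and Des well above background on no array. Erythroid markers, 7 of 8 tested and 7 above 0, summed to 330.7 to 579.1 and 351.2 to 606.2, with Hba-a1 the brightest. Neural and melanocyte markers, 5 of 9 tested and 1 above 0, summed to 1.54 to 2.95 and 1.52 to 2.78, with Elavl4 the brightest and Foxd3 at background. Lymphatic endothelial markers, 8 of 8 tested and 8 above 0, summed to 531.0 to 621.8 in wild type and 575.3 to 648.3 in the knockout, with Ccl21a the brightest. Their median difference was 0.54, and the groups did not overlap for 6, against 12.2% of everything tested. The limma test called 0 of 8 with genotype alone or the replicate block, and 2 with the slide block. Pan-endothelial markers, 8 of 12 above 0, summed to 1111 to 1217 and 1153 to 1252. The part of these cell types in the members' differences was not tested.

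Among named genes, those whose levels ran most like Vwf over the 6 arrays were Icam2, an endothelial adhesion molecule, Aurkaip1, Gadd45gip1, Rbpms and Rnaseh2a, with Pearson's r from 0.988 to 0.995. For Thbd, the member with the smallest unadjusted p, they were Mgat4b, Nckap5l, Tmem30a, Smim15 and Arl15, with r from 0.992 to 0.998. These are the highest values out of the 13449 named genes tested, over arrays that share 2 slides and 2 genotypes, and serve as a description.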

How the data were processed

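Per the file headers, the deposited scanner files were written by Agilent Feature Extraction 10.7.3.1 and hold an intensity per spot on a linear scale. The processed intensity is that software's background-subtracted, detrended Cy3 value and is not normalised between arrays. In the authors' deposited value table each array carries this intensity multiplied by a single constant (2.29 to 3.69), with column medians of 60.3 to 67.0. That table is linear and not centred, and the basis of its constants is unknown here. Outlier spots (126 to 179 per array) were left out, no spot was saturated, and spots of a probe were averaged. Symbols came from RefSeq (97.7% of the 27016 probes with a curated accession, 47.4% of all probes). Of a gene's probes the brightest by mean was tested with limma 3.58.1 in R 4.3.3 (lmFit, eBayes, genotype only, two-sided, Benjamini-Hochberg over 24247, threshold 0.05). The script was tested on simulated data.

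Named genes were all members, of each pathway list those past the threshold and the 3 with the smallest p, the brightest and any undetected gene of each marker list, and Aplnr. The members and lists were chosen with earlier results of these data known. Arrays of the same number deviated together (r = 0.23, 0.15 and 0.65 over all tested, each above the limit set for pairing), although pairs of different numbers ran from -0.48 to 0.36 and overlapped them. The numbers from the titles were taken to pair the samples in the replicate block and the same-numbered differences only, and the main fit used genotype alone. Numbers 3, with the r of 0.65, share slide 2. The mouse numbers are given within each genotype, so whether same-numbered samples belong together is not known here. The files hold no mean spot signal, so normexp correction, with an offset of 50, used the median signal. Of the listed pathway and marker genes 2 are not reported here and enter no count of their lists.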

Additional observations from a re-analysis of the deposited data

How the results depend on the processing

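Under 17 alternatives to the fit (background correction, scaling, the authors' value table, filters on dim probes, the choice of probe, the variance model, both blocks, and each array left out), 0 of 9 members passed the limma threshold. The smallest adjusted p was 0.145, for Thbd with the slide as a block, and up to 4 members had an unadjusted p under 0.05. Of 151 member values 148 kept their direction. Both blocks, the variance model and the filters left the fitted differences as they were, so this count includes many values that could not turn. Leaving out 1 array at a time, Serpine2 ran from -0.26 to 0.13 and turned positive without wild type replicate 1 (0.022) or APJ knockout replicate 3. F3 ran from -0.014, without APJ knockout replicate 2, to 0.66. The same step gave Vwf -0.34 to -0.18, F8 -0.26 to -0.030, Tfpi 0.034 to 0.24, Thbd 0.17 to 0.34 and Procr -0.28 to -0.095. Within slides, F3 was -0.24 and Tfpi -0.047 on slide 2, and F8 was 0.0066 on slide 1. The cause was not tested. The dim probes of F3, F8 and Tfpi2 limit what these arrays show.

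Over everything tested, 89 were higher and 45 lower. Blocking on the slide gave 185 and 101, and the replicate block gave 4 and 1 and changed no member's call. Without a filter on low signal they were 3 and 0, with 1049 lower at an unadjusted limma p under 0.05, and more dim probes entered that fit. With every probe tested on its own 136 were higher, and with a trended, robust variance 71 were lower. Leaving out 1 array at a time gave 11 to 45 higher and 1 to 26 lower, with fewer arrays in each fit. In the plasminogen list 2 genes passed when blocked on the slide, and Lrp1 (limma adjusted p = 0.0484) when every probe was tested on its own. F3 and Tfpi2 could not be tested under the filter that asks for a signal above background on all 6 arrays. The normexp correction used the median spot signal, an alternative chosen after seeing the data.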
